A study of Mus musculus with 5 samples.

Results

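The clustered protocadherins are cell adhesion genes arranged in 3 neighbouring gene arrays, named alpha, beta and gamma. They were taken by gene symbol, and 57 of the 55348 symbols in the table of BMN and BMN/PAZA low dose belonged to them, 13 in the alpha, 22 in the beta and 22 in the gamma cluster. RNA sequencing covered LLC samples of 5 groups with 1 library each, and LLC is a mouse Lewis lung carcinoma line. Control is named so by the labels, BMN received the PARP inhibitor BMN673, and PAZA received a polymer carrier made with azacytidine, an inhibitor of DNA methyltransferases. BMN/PAZA low dose and BMN/PAZA high dose received BMN carried by PAZA at 0.25 and 2 mg/kg, and the single agents are described at 0.25 mg/kg. The paper describes tumors grown in C57BL/6 mice and taken the day after the last dose, whereas the labels speak of cultured cells with a treatment of 72 h. The labels name no separate animals or cultures. With 1 library per group no difference has a replicate check, and no p-value was computed.

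Protocadherins of the clusters are membrane proteins that bind their own kind on a facing cell, and neurons use the combination of isoforms they carry to tell self from non-self. Each variable exon of the alpha and gamma clusters has its own promoter and is spliced to constant exons that the whole cluster shares, whereas each beta gene is a single exon of its own. Promoter choice depends on the architectural protein CTCF and on cohesin, and DNA methylation, laid down by enzymes that azacytidine blocks, silences the promoters that are not chosen. The C-type genes at the ends of the alpha and gamma clusters are chosen in a more uniform way than the others.

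The 3 clusters lie on chromosome 18 of GRCm38. By GENCODE M21 the alpha cluster runs from 36930184 to 37187661, the beta cluster from 37264938 to 37524479 and the gamma cluster from 37661793 to 37841873, so that the clusters and the gaps between them span 912 kb. The longest transcript of all 22 beta genes has 1 exon. The alpha and the gamma genes have almost all their ends in common, with 2 distinct end positions in each cluster, because they share their last exons. Reads from those shared exons cannot be given to a single gene, so the value of one alpha or gamma gene is uncertain and the summed value of the cluster is the firmer measurement. Beta genes are close copies of each other, and the annotated spans of Pcdhb21 and Pcdhb22 overlap, so these values are uncertain as well.

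The deposited values carry no unit and were taken to be FPKM, that is, fragments per 1 kb of gene and per 1000000 fragments. In single-exon genes, 94.9% to 96.8% of the low values of a library were whole multiples of one smallest step within 0.05 of a step, after 150 to 175 bases were taken off the gene length. That step puts the libraries at 7250000 fragments for Control, 7040000 for PAZA, 9220000 for BMN, 6540000 for BMN/PAZA low dose and 6600000 for BMN/PAZA high dose, estimates that hold only if the unit is FPKM. A single fragment in a gene of 3 kb then counts for 0.0362 to 0.0510 FPKM.

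**Figure D1:**
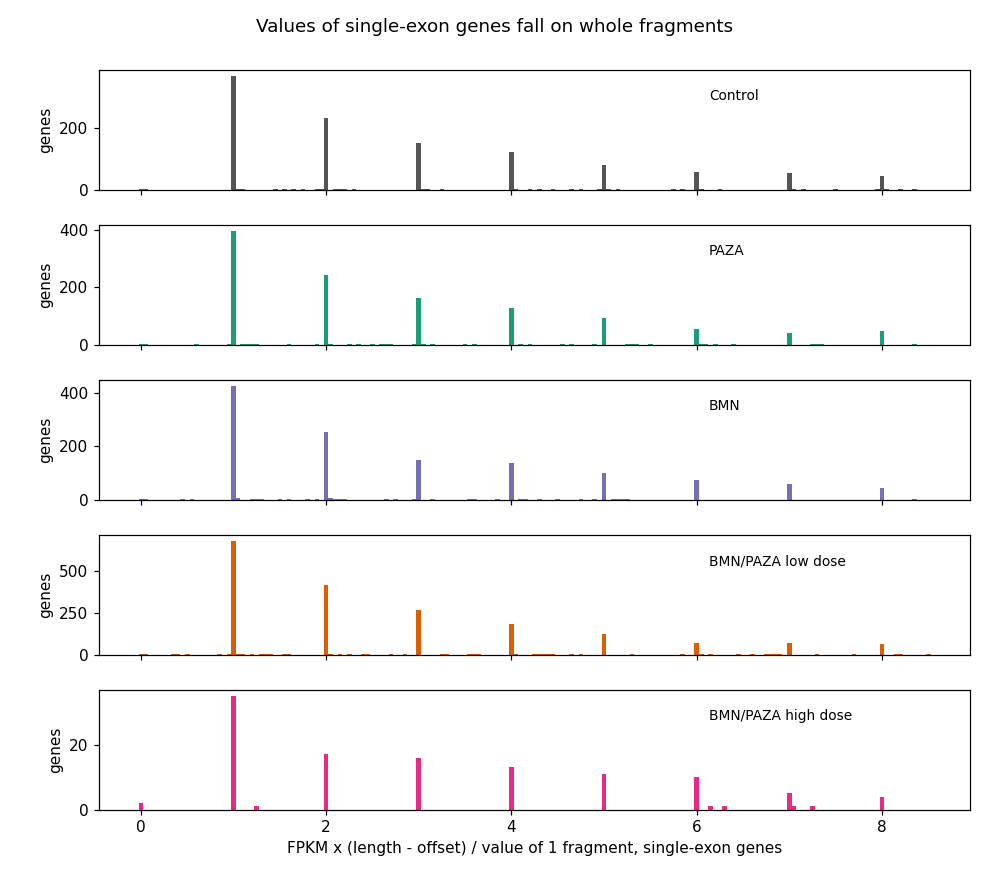
Values of single-exon genes divided by the value of 1 fragment (x axis, number of fragments) against the number of genes (y axis), in 1 panel for each of the 5 libraries. The values pile up on whole numbers, and 372 of 1149 genes of the Control library and 697 of 1953 of the BMN/PAZA low dose library lay nearest to 1 fragment.

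All 57 members were listed with BMN and BMN/PAZA low dose, 34 with Control and PAZA, and 41 with BMN/PAZA high dose. Above 0 were 28 members in Control, 26 in PAZA, 36 in BMN, 35 in BMN/PAZA low dose and 32 in BMN/PAZA high dose. Of the 4599 genes of the other PAZA table that were not listed with Control, 2 had a PAZA value above 0, so a member not listed with Control and PAZA is taken as 0 where a mean is given. The same cannot be said of the high dose, where 6672 of 39193 genes not listed were above 0 at the low dose. The 16 members not listed with the high dose were all at 0 at the low dose.

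**Figure D2:**
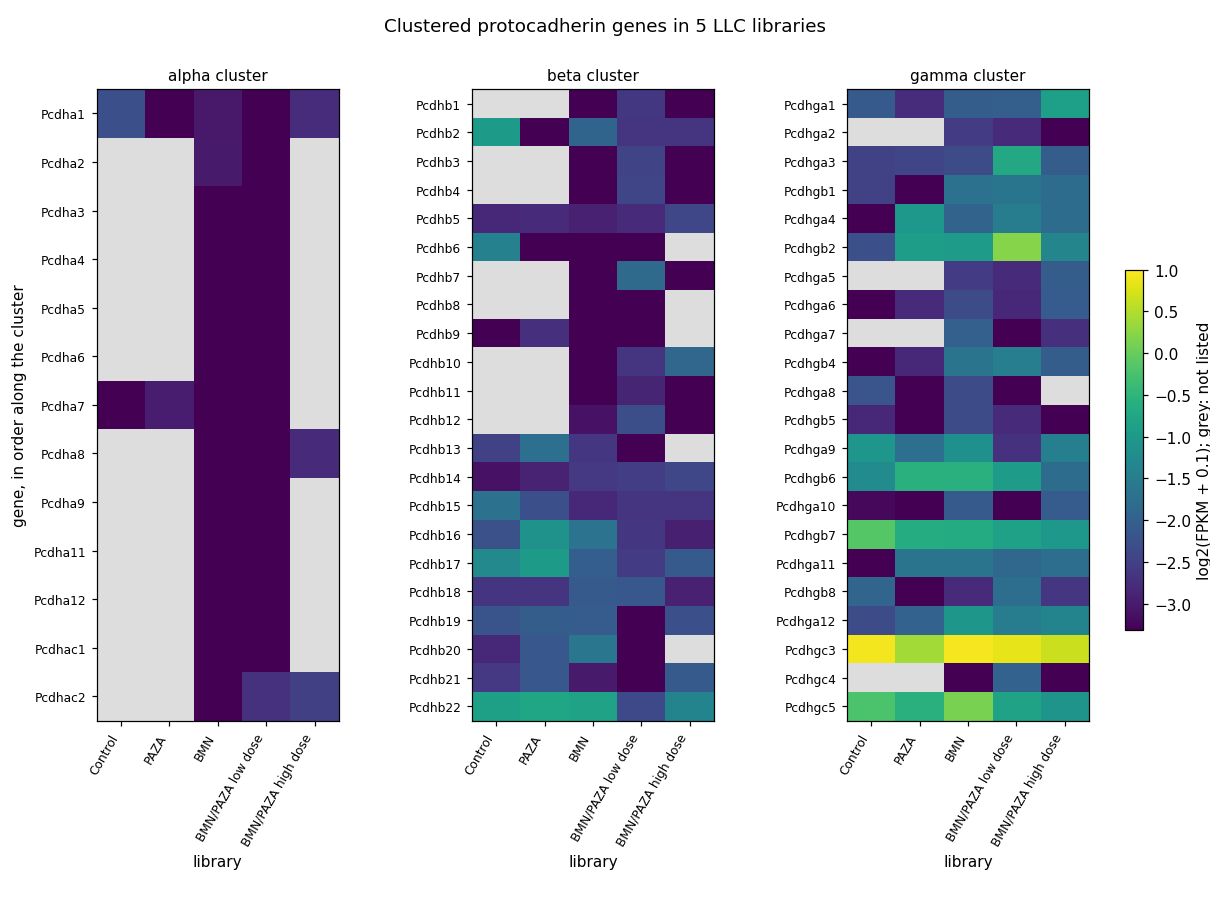
Level of each member (rows, in order along its cluster) in each of the 5 libraries (columns), as log2(FPKM + 0.1), with genes not listed in grey. The alpha cluster is at or near 0 throughout, and Pcdhgc3 in the gamma cluster is the brightest gene in all 5 libraries.

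The clusters were weakly expressed in all 5 libraries. Levels are given as deposited, and since the tables were scaled separately, Control and PAZA values would be multiplied by 1.06 to stand on the scale of the other 3 libraries. The median of the members above 0 was 0.114 FPKM in Control, 0.15 in PAZA, 0.140 in BMN, 0.0948 in BMN/PAZA low dose and 0.140 in BMN/PAZA high dose. These medians stood between the 7.84 and 14.0 percentile of the genes above 0 in the same library, whose own median lay between 1.36 and 4.6 FPKM. Of the 57 members, 16 were above 0 in all 5 libraries, 11 in a single library and 9 in none where listed. The 16 were 7 beta and 9 gamma genes, and the 9 were 8 alpha genes and Pcdhb8.

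The alpha cluster was close to silent. Its summed value was 0.109 FPKM in Control, 0.0275 in PAZA, 0.0470 in BMN, 0.0534 in BMN/PAZA low dose and 0.168 in BMN/PAZA high dose. Pcdha1, the first gene of the cluster, had 0.109 FPKM in Control, 0.0228 in BMN and 0.0460 at the high dose, and 0 in PAZA and at the low dose. Pcdha7 was above 0 in PAZA alone, Pcdha2 in BMN alone and Pcdha8 at the high dose alone. Pcdhac1, a C-type gene, was at 0 wherever it was listed, and the other C-type gene of the cluster, Pcdhac2, had 0 in BMN, 0.0534 FPKM at the low dose and 0.0770 at the high dose. By the longest gene model the alpha values amount to at most 3.99 fragments, that of Pcdha1 in Control, and to 1.0 fragment for Pcdha7 in PAZA. No alpha gene was above 0 in more than 3 libraries, and at this depth a difference between alpha genes was not detectable.

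The gamma cluster held most of the signal. Its summed value was 4.91 FPKM in Control, 4.51 in PAZA, 6.87 in BMN, 6.49 in BMN/PAZA low dose and 5.09 in BMN/PAZA high dose, and each sum was more than that of the alpha and beta clusters of the same library. All 22 gamma genes were above 0 in at least 1 library. Pcdhgc3, a C-type gene, was the highest member everywhere, at 1.81 FPKM in Control, 1.21 in PAZA, 1.81 in BMN, 1.69 at the low dose and 1.47 at the high dose. It made up 26.0% to 36.8% of the gamma sum and stood between the 30.4 and 52.7 percentile of genes above 0.

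The other C-type genes of the gamma cluster differed from it and from each other. Pcdhgc5 had 0.758 FPKM in Control, 0.568 in PAZA, 0.995 in BMN, 0.461 at the low dose and 0.372 at the high dose, the highest value being that of BMN. Pcdhgc4, which lies between them, was at 0.156 FPKM at the low dose and at 0 in BMN and at the high dose, and was not listed with Control and PAZA.

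Among the other gamma genes, Pcdhgb7 and Pcdhgb2 had the highest means. Pcdhgb7 had 0.804 FPKM in Control, 0.536 in PAZA, 0.533 in BMN, 0.455 at the low dose and 0.394 at the high dose, with Control the highest. Pcdhgb2 had 0.107 FPKM in Control, 0.439 in PAZA, 0.419 in BMN, 1.06 at the low dose and 0.291 at the high dose. It was lowest in Control and highest at the low dose, and its low dose value was the only one of at least 1 FPKM outside Pcdhgc3.

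Single gamma values should be read with the shared exons in mind. In the BMN library Pcdhga6, Pcdhga8, Pcdhga3 and Pcdhgb5 lay between 0.0997 and 0.102 FPKM, and at the low dose Pcdhga6, Pcdhga2, Pcdhgb5 and Pcdhga5 lay between 0.0420 and 0.0429. At the high dose 5 gamma genes lay between 0.140 and 0.143 FPKM. Pcdhga10 in Control, at 0.00648 FPKM, amounted to 0.214 of a fragment, so part of a fragment had been assigned to it.

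The beta cluster can be read gene by gene in fragments, most closely for the 18 of its 22 genes whose only transcript is a single exon, which leaves out Pcdhb2, Pcdhb6, Pcdhb8 and Pcdhb22. Its summed value was 2.18 FPKM in Control, 2.14 in PAZA, 1.72 in BMN, 1.20 in BMN/PAZA low dose and 1.18 in BMN/PAZA high dose. In fragments, rounded after summing, it was 69 in Control, 75 in PAZA, 80 in BMN, 32 at the low dose and 39 at the high dose, where 17 of the 22 genes were listed. Control, PAZA and BMN thus stood above the low dose library, while the high dose total is a lower bound.

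Per 1000000 fragments the beta cluster had 9.52 in Control (95% interval 7.41 to 12.1), 10.7 in PAZA (8.38 to 13.3) and 8.68 in BMN (6.88 to 10.8). It had 4.90 at the low dose (3.35 to 6.91) and at least the 5.91 of the listed genes at the high dose (4.20 to 8.08). The intervals are exact Poisson intervals that cover counting error only and compare these libraries, not the conditions. The values per 1000000 also rest on the scale of each table, with Control and PAZA not brought to that of the others. The low dose interval lay under those of Control and PAZA and overlapped that of BMN at its edge. The highest beta gene of a library was Pcdhb7 at the low dose and Pcdhb22 in the others. Without that gene all 5 intervals overlapped, at 6.62, 7.53, 5.64, 4.28 and 4.09 fragments per 1000000 in the order Control, PAZA, BMN, low dose and high dose. Over the 18 genes with a sole single-exon transcript the values were 4.55, 7.53, 5.21, 4.13 and 3.94 in the same order, and all 5 intervals overlapped as well, so that Control and the low dose lay close together.

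**Figure D3:**
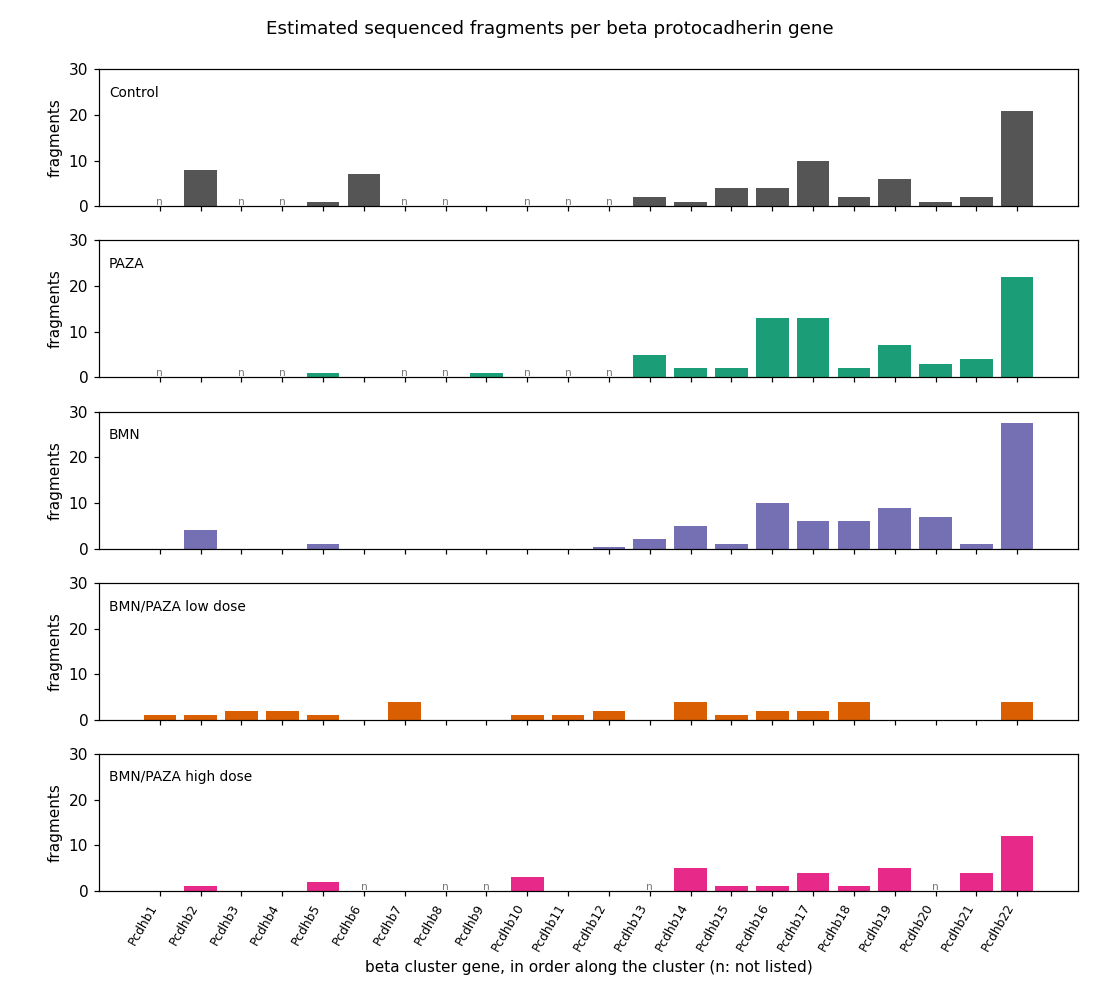
Estimated fragments (y axis) for each beta gene in order along the cluster (x axis), in 1 panel for each of the 5 libraries, with n for a gene that was not listed. In Control, PAZA and BMN the fragments gather in the later genes with Pcdhb22 at more than 20, whereas at the low dose they are spread thinly and no gene exceeds 4.

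Pcdhb22, the last gene of the array, had 0.447 FPKM in Control, 0.485 in PAZA, 0.462 in BMN, 0.0948 at the low dose and 0.284 at the high dose. These values are 20.8, 22.0, 27.4, 4.0 and 12.1 fragments, so the low dose library was the lowest and the high dose library stood between it and the other 3. Fragments in its overlap with Pcdhb21 cannot be told apart from those of that neighbour, which had 0.0647, 0.125, 0.0239, 0 and 0.133 FPKM in the same order.

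Pcdhb16 and Pcdhb17, among the later genes of the array, were higher in PAZA than in Control. Pcdhb16 had 0.109 FPKM in Control, 0.365 in PAZA, 0.215 in BMN, 0.0604 at the low dose and 0.0298 at the high dose, which is 4.0, 13.0, 10.0, 2.0 and 0.999 fragments. Pcdhb17 had 0.307 FPKM in Control, 0.411 in PAZA, 0.145 in BMN, 0.0679 at the low dose and 0.134 at the high dose. Both were highest in PAZA of the 5 libraries, and the combination libraries had at most 4 fragments of either gene.

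Pcdhb2 and Pcdhb6 lie in the earlier part of the array. Pcdhb2 had 0.412 FPKM in Control, 0 in PAZA, 0.164 in BMN, 0.0577 at the low dose and 0.0569 at the high dose, and its Control value is 7.88 fragments. Pcdhb6 had 0.273 FPKM in Control, 7.04 fragments, and 0 in PAZA, BMN and at the low dose, and was not listed at the high dose. Control had the highest listed value of both genes, on fewer than 10 fragments each.

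Of the 15 beta genes above 0 at the low dose, 6 rested on a single fragment, against 3 of 13 in Control, 2 of 12 in PAZA, 3 of 13 in BMN and 4 of 11 at the high dose. Over all single-exon genes with few fragments, 697 of 1953 low dose values were nearest to 1 fragment. The other libraries had 372 of 1149 in Control, 404 of 1210 in PAZA, 439 of 1294 in BMN and 36 of 118 at the high dose. Of all genes, 20.6% were above 0 at the low dose and at 0 in BMN. Pcdhb7 reached 0.183 FPKM at the low dose, 4.0 fragments, and was at 0 in BMN and at the high dose and not listed with Control and PAZA. Pcdhb1, Pcdhb3, Pcdhb4 and Pcdhb11 had between 0.0359 and 0.0859 FPKM at the low dose and were not above 0 in any other library. These genes were singled out after their values were seen.

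The difference between the earlier and the later genes of the array was also noticed in the values and has no test. Pcdhb1 to Pcdhb12 had 16 fragments in Control, 2 in PAZA, 5 in BMN, 15 at the low dose and 6 at the high dose. Pcdhb13 to Pcdhb22 had 53 in Control, 73 in PAZA, 74 in BMN, 17 at the low dose and 33 at the high dose. All 10 of the later genes were above 0 in Control, PAZA and BMN, and 6 of the 10 at the low dose.

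Another gene family was compared by its mean level, without a filter on the number of exons. The 1398 olfactory receptor genes are used by sensory neurons of the nose and are silent in most other cells. Above 0 were 5.08% of them in Control, 3.86% in PAZA, 6.08% in BMN and 29.3% at the low dose. Their mean was 0.0142 FPKM in Control, 0.0112 in PAZA, 0.010 in BMN and 0.0526 at the low dose. The mean of the 22 beta protocadherins was 0.0989, 0.0975, 0.0782 and 0.0544 FPKM in the same 4 libraries. The beta genes thus stood well above the olfactory receptor genes in Control, PAZA and BMN and beside them at the low dose. The 330 vomeronasal receptor genes, another family of sensory neurons, had means of 0.00774 FPKM in Control, 0.00829 in PAZA, 0.00555 in BMN and 0.0381 at the low dose, the last below the mean of the beta genes. With Control and PAZA 104 of the olfactory receptor genes were listed, and the others are taken as 0 as described above. At the high dose 437 were listed and 53 were above 0, so that 3.79% and a mean of 0.0115 FPKM are lower bounds. So is the mean of 0.0537 FPKM for the beta genes there, of which 17 were listed. Over all 4949 single-exon genes, 31.1% were above 0 in Control, 32.4% in PAZA, 36.0% in BMN and 48.8% at the low dose. The part of this in the low dose values of the protocadherins was not tested.

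**Figure D4:**
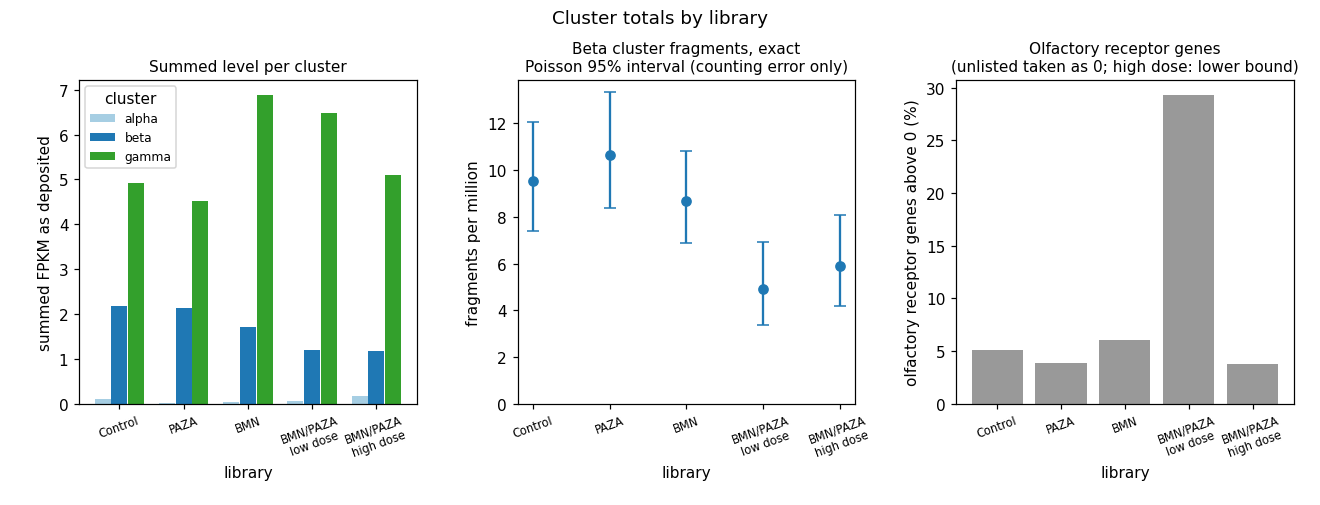
Left, summed FPKM (y axis) of the alpha, beta and gamma clusters in each library (x axis). Middle, beta fragments per 1000000 with exact Poisson 95% intervals, lowest at the low dose with 4.90. Right, percentage of the 1398 olfactory receptor genes above 0 with unlisted genes taken as 0, a lower bound at the high dose, and the highest value drawn is 29.3% at the low dose.

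The comparison of PAZA with Control asked what the azacytidine carrier does alone. Of the 34 members listed, 20 were higher and 14 lower in PAZA, 58.8% higher against 51% of all genes. At least 2-fold higher, on the log2(FPKM + 0.1) scale, were 4 members against 14.7% of all genes, and 5 were at least 2-fold lower against 12.2%. The median log2 difference was 0.075 for the members and 0.011 for all genes. In this pair 6 members were above 0 in PAZA and at 0 in Control, against 12.1% of all genes, and 8 the other way round, against 9.46%. Of the 10367 genes of a mean of up to 2 FPKM, these were 2400 and 1891. The shares at least 2-fold higher and lower for genes of a mean of up to 2 FPKM, the range of most members, were 24% and 19.9%, so the members did not exceed weak genes in either share.

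The 4 members at least 2-fold higher in PAZA were 3 gamma genes and Pcdhb16, and the 5 at least 2-fold lower were 2 beta genes, 2 gamma genes and Pcdha1. Pcdhga4 had 0 FPKM in Control and 0.391 in PAZA, Pcdhga11 had 0 and 0.216, and Pcdhgb2 had 0.107 and 0.439. The lowest were Pcdhb2 and Pcdhb6, at 0 in PAZA, and Pcdhgb8, at 0.167 FPKM in Control and 0 in PAZA. A log2 difference against a value of 0 is set by the 0.1 added, so only the 2 values are given. The summed value in PAZA was 0.986 of that in Control for the beta cluster and 0.917 for the gamma cluster. Both ratios were nearer to 1 than those of the genes named here.

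BMN/PAZA low dose was compared with BMN to see what the carrier adds to the PARP inhibitor. Of 44 members with a value above 0 in either library, 19 were higher and 25 lower at the low dose, 43.2% higher against 58% of all genes. At least 2-fold higher were 5 members against 21.7% of all genes, and at least 2-fold lower were 6 against 11%. The median log2 difference was -0.19 for the members and 0.18 for all genes. Above 0 at the low dose and at 0 in BMN were 8 members, against 20.6% of all genes, and 9 the other way round against 9.17%. Of the 14330 genes of a mean of up to 2 FPKM, these were 4976 and 2171. Among genes of a mean of up to 2 FPKM, 32% were at least 2-fold higher and 15.6% at least 2-fold lower.

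The 3 highest differences between the low dose and BMN were those of Pcdhga3, 1.60 on the log2 scale from 0.10 to 0.506 FPKM, and of Pcdhb7 and Pcdhgc4, which were at 0 in BMN. The lowest were Pcdhb20, with 0.224 FPKM in BMN and 0 at the low dose, Pcdhga9, at -1.55 from 0.349 to 0.0532 FPKM, and Pcdhb22 at -1.53. The summed value of the beta cluster at the low dose was 0.695 of that in BMN, that of the gamma cluster 0.944.

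BMN/PAZA low dose against PAZA asked what BMN adds to the carrier. Of 41 members, 24 were higher and 17 lower at the low dose, 58.5% higher against 59.1% of all genes. At least 2-fold higher were 8 members against 20.6% of all genes, and at least 2-fold lower were 7 against 9.99%. The median log2 difference was 0.41 for the members, 0.12 for all genes and 0.54 for genes of a mean of up to 2 FPKM. The members' median changed sign to -0.29 with a filter of a mean of at least 0.1. It was 0.057 with a pseudocount of 1. Among genes of a mean of up to 2 FPKM, 33.1% were at least 2-fold higher and 14.5% at least 2-fold lower. The 7 members at least 2-fold lower were all beta genes. Above 0 at the low dose and at 0 in PAZA were 15 members against 23.4% of all genes, and 6 the other way round against 7.32%. Of the 13989 genes of a mean of up to 2 FPKM, these were 5549 and 1695. Of the 19 gamma genes with a value, 12 were higher and 6 of these at least 2-fold.

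Pcdhga3 differed by 1.63 on the log2 scale, while Pcdhgb1 and Pcdhgb8, the other members with the highest differences, were at 0 in PAZA and at 0.210 and 0.187 FPKM at the low dose in the table of these 2 libraries. Pcdhb17 and Pcdhb22 were lower at the low dose by -1.65 and -1.63, and Pcdhb13 had 0.20 FPKM in PAZA and 0 at the low dose. The summed value at the low dose was 0.526 of that in PAZA for the beta cluster and 1.36 times that in PAZA for the gamma cluster. The clusters thus lay on opposite sides of PAZA in this pair of libraries. The low dose is also the library of both this comparison and the one with BMN, so these are not independent of each other.

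BMN/PAZA high dose was compared with BMN over 35 members. Of these, 15 were higher and 20 lower at the high dose, 42.9% higher against 38.3% of all genes. At least 2-fold higher were 2 members against 7.4% of all genes, and at least 2-fold lower were 4 against 10.2%, while genes of a mean of up to 2 FPKM had 14.7% and 17.9%. The median log2 difference was -0.091 for the members and -0.17 for all genes. Above 0 at the high dose and at 0 in BMN were 3 members against 4.16% of all genes, and 3 the other way round against 4.99%. Of the 5475 genes of a mean of up to 2 FPKM, these were 586 and 716.

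Pcdhga1, the first gamma gene, had 0.141 FPKM in BMN and 0.440 at the high dose, a log2 difference of 1.17, and Pcdhb10 had 0 and 0.168 FPKM. Pcdhb21 differed by 0.91. On the lower side were Pcdhb16 at -1.28, Pcdhgb6 at -1.22, from 0.574 to 0.190 FPKM, and Pcdhgc5 at -1.21. Over the genes listed with both libraries, the summed value at the high dose was 0.822 of that in BMN for the beta cluster and 0.752 for the gamma cluster. The alpha sum went the other way, 0.168 against 0.0228 FPKM or 7.36 times that in BMN, on at most 2.92 fragments per gene.

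The table of the 2 doses holds the low dose library on another scale. Its low dose values were 3.26 times those in the table with BMN, as the median over 15467 genes, with 378 genes but no member more than 0.5% off that ratio. The high dose values were as in the table with BMN, within 0.5% for every member and for all but 1 of 13738 genes. As deposited, 32 of 41 members were higher at the low dose and 23 at least 2-fold, against 93.9% and 86% of all genes, and 3 were at least 2-fold lower against 3.41%. On the scale of the tables with BMN, 23 members were higher and 18 lower at the low dose, 56.1% higher against 68% of all genes. On that scale 5 were at least 2-fold higher against 15.4%, and 5 at least 2-fold lower against 6.58%. For genes of a mean of up to 2 FPKM these shares were 28.7% and 12.1%, and the members' own were 12.2% in each direction. The number of members higher at the low dose thus changed from 32 to 23 with the scale, and the median log2 difference of the members was 1.19 as deposited and 0.16 on the other scale.

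On the scale of the tables with BMN the 17 beta genes listed with both doses summed to 1.20 FPKM at the low and 1.18 at the high dose. Of the beta genes, 9 were above 0 at both doses, 6 at the low dose only, against 15% of all genes of the table of the 2 doses, and 2 at the high dose only, against 4.18%. Of the 5676 genes with a mean of up to 2 FPKM in that table, 2368 were above 0 at the low dose only and 656 at the high dose only. The beta genes named next rest on about 4 or 5 fragments. Pcdhb7 had 0.183 FPKM at the low dose and 0 at the high dose, while Pcdhb19 had 0 and 0.108 FPKM, and Pcdhb21 had 0 and 0.133. Among gamma genes, Pcdhgb2 had 1.06 FPKM at the low dose and 0.291 at the high dose, Pcdhga3 had 0.506 and 0.141, and Pcdhga10 had 0 and 0.140. The gamma sum at the low dose was 1.27 times that at the high dose.

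**Figure D5:**
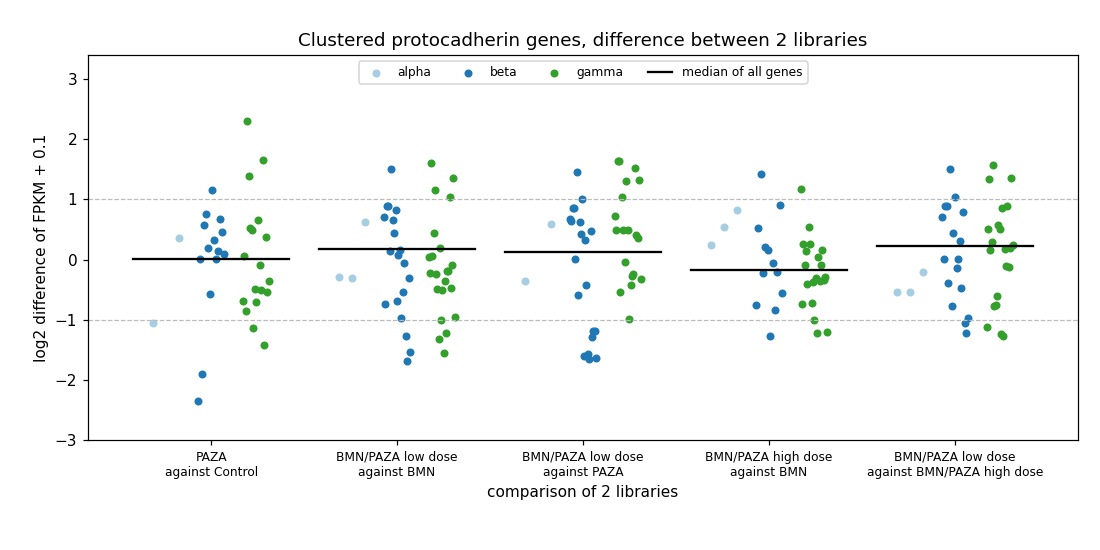
Log2 difference of FPKM + 0.1 (y axis) for each member in each of 5 comparisons (x axis), coloured by cluster, with the median of all genes as a black line and 2-fold as dashed lines. The comparison of the 2 doses is drawn on the scale of the tables with BMN. Members scatter on both sides of 0 in all 5 comparisons.

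A list of 20 regulators held CTCF, cohesin and its loader, SMCHD1, the SETDB1 complex, DNA methyltransferases and the TET enzymes, and its median gene had 22.3 to 30.1 FPKM. Not all were so high, as Dnmt3b had 0.0364 to 0.131 FPKM, under the median member in each library. In PAZA, 5 of 19 were higher than in Control and 14 lower, with none past 2-fold, where 51% of all genes were higher. At the low dose 2 of 20 were higher than in BMN, against 58% of all genes, and 1 was at least 2-fold lower, against 11%. At the high dose likewise 2 of 20 were higher than in BMN, against 38.3% of all genes, and 3 were at least 2-fold lower, against 10.2%. Dnmt1, the maintenance methyltransferase that azacytidine traps, had 84.8 FPKM in Control, 56.2 in PAZA, 78.2 in BMN, 46.0 at the low dose and 30.9 at the high dose. Its 3 libraries with the carrier were below both libraries without it. Ctcf had 25.3, 21.3, 28.8, 22.2 and 17.9 FPKM in the same order, again lower in the libraries with the carrier. Smchd1, which keeps clustered protocadherin promoters silent in some tissues, had 28.4, 26.3, 31.4, 22.6 and 22.3 FPKM.

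Protocadherins outside the clusters were read as a list of 12, whose median gene had 0.234 to 0.868 FPKM. Pcdh8, Pcdh9, Pcdh11x and Pcdh20 had at most 0.0762 FPKM in any library, in the range of the clustered genes. Pcdh7 was the highest, at 20.2 FPKM in Control, 10.4 in PAZA, 7.94 in BMN, 13.2 at the low dose and 11.6 at the high dose, above the summed value of all 57 clustered genes in each library but BMN. Pcdh10 had 2.19, 2.58, 2.86, 3.48 and 1.83 FPKM in the same order. In PAZA 4 of 8 were higher than in Control, against 51% of all genes, and at the low dose 8 of 12 were higher than in BMN, against 58%, with Pcdh18 at least 2-fold lower, from 1.04 to 0.123 FPKM. A list of 15 partners of the protocadherin cytoplasmic domain, such as the WAVE complex and the kinases Ptk2 and Ptk2b, had median log2 differences of -0.10 for PAZA against Control, -0.08 for the low dose against BMN, 0.15 for the low dose against PAZA and -0.22 for the high dose against BMN.

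The 31 genes within 500 kb of the clusters were examined for a change over the whole region. Of 27 with a value, 16 were higher in PAZA than in Control, against 51% of all genes, and 14 of 28 were higher at the low dose than in BMN, against 58%. Their median log2 differences were 0.084 and 0.0038 in these 2 comparisons, and those of all genes 0.011 and 0.18. Slc25a2, between the beta and gamma clusters, had 1.57 FPKM in PAZA and 0 in Control, BMN and at the low dose, and was not listed at the high dose. It was named after its values were seen.

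Markers of other cells were present in these libraries, which the labels describe as cultured LLC cells. Of 10 neuron markers, 5 to 9 were above 0, and their summed level was 2.07 to 2.66 FPKM in the 5 libraries, with Elavl3 and Snap25 at 0 in BMN and at the high dose. The sums of 8 fibroblast markers were 206 FPKM in Control, 359 in PAZA, 499 in BMN, 220 at the low dose and 236 at the high dose.

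The sums of 6 endothelial markers were 19.9, 36.0, 29.7, 25.0 and 24.6 FPKM in the same order, and those of 5 leukocyte markers 69.5, 90.5, 93.0, 65.6 and 64.4. Skeletal muscle markers summed to 6.25, 34.4, 88.7, 8.96 and 114 FPKM, with 6 of 6 above 0 in 4 libraries and 5 at the low dose, where Ckm was at 0. Keratinocyte markers summed to 41.7, 5.37, 125, 1.14 and 8.07 FPKM, with 5 of 6 above 0 in 4 libraries and 3 at the low dose, where Krt5 and Krt1 were at 0. Adipocyte markers summed to 24.3, 60.3, 38.6, 30.4 and 37.4 FPKM. The gamma sum was highest in BMN, as were the neuron, fibroblast and keratinocyte sums, and second highest at the low dose, where the keratinocyte sum was lowest. As deposited the leukocyte sum was also highest in BMN, at 93.0 against 90.5 in PAZA, without the factor of 1.06 between their scales. The endothelial and adipocyte sums were highest in PAZA and the muscle sum at the high dose. The sums of 7 Schwann cell markers and of 4 proliferation genes were also highest in PAZA, at 8.18 and 420 FPKM. In such mixed samples, fewer cells of a type and less RNA per cell cannot be told apart, and the part of these cells in the protocadherin values was not tested.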

How the data were processed

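RNA sequencing values of 5 LLC libraries, 1 per group, were used. The submitters' processing notes name HISAT2, StringTie and the build GRCm38, without versions. The authors deposited 5 tables of 2 groups each, whose values carry no unit and were read as FPKM. No count is given, and 0 columns were left unused. Each library was taken from 1 table, and differences were computed within a table as log2(FPKM + 0.1), over genes above 0 in either column. Tables were scaled separately. The same library differed between tables by a median ratio, and Control and PAZA would be multiplied by 1.06 to reach the scale of BMN.

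Members were 57 symbols, matched to GENCODE M21 for position and length. A repeated symbol was represented by its highest row. Fragments were obtained by dividing FPKM by the value of 1 fragment, found from genes with 1 exon and 1 transcript longer than 1000 bases, and the step search and the 2-fold count were tested on simulated data. The members and lists were chosen with earlier results of these data known. Named members were the C-type genes, the 4 highest of each cluster by mean over the 4 libraries other than the high dose, and the 3 highest and 3 lowest of each comparison; others are named where said. The table of the 2 doses is on another scale for one library, and the scale of the tables with BMN was chosen after seeing the data. The reference given here holds no promoter or protein of these genes, and none is printed. Alternatives were pseudocounts of 1 and 0.01, a mean of at least 0.1, columns rescaled to a sum of 1000000, centring on the median of all genes, the shared library from another table, and summed repeats. Members off the constant between tables, or the highest member of a cluster, were also left out. Tables were handled with pandas 2.3.3 and numpy 2.4.6 in Python 3.11.15, intervals computed with scipy 1.17.1 and figures drawn with matplotlib 3.10.9.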

Additional observations from a re-analysis of the deposited data

Results flagged for a closer look

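As deposited, 2 measurements of the effect of adding PAZA lay on opposite sides of 0 without and with BMN, and these differences were not tested, since each group has 1 library. The summed alpha cluster had a log2 ratio of -1.98 in PAZA against Control and 0.18 in BMN/PAZA low dose against BMN, on at most 4 fragments per gene. With columns rescaled to a sum of 1000000 the latter was -0.063, on the same side as the former. The median log2 difference of the members was 0.075 in PAZA against Control and -0.19 in BMN/PAZA low dose against BMN. The log2 ratios of the beta and gamma sums were below 0 in both comparisons, but that of gamma in PAZA against Control was 0.084 without Pcdhgc3.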

How the results depend on the processing

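No paired analysis was possible because each group has 1 library. Over 193 values recomputed under another setting, 116 stayed within 0.1 on the log2 scale or 1.5 times the count, 70 moved further and 7 changed sign. Summing repeated symbols moved none. No member was off the constant between tables, so leaving out such members removed none. The 20 values of that setting could not change and are among the 116. The cause of each change was not tested, except that a larger pseudocount shrinks the differences of weak genes and that fewer members pass the filter on the mean or are listed in another table.

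For PAZA against Control, the filter of a mean of at least 0.1 left 10 higher. Members at least 2-fold higher numbered 0 members with a pseudocount of 1 and 10 with 0.01. Those at least 2-fold lower numbered 0 and 8 with these pseudocounts, 2 with the filter and 2 with PAZA from another table. The gamma log2 ratio changed sign to 0.084 without Pcdhgc3.

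For BMN/PAZA low dose against BMN, the median became -0.034 with a pseudocount of 1, -0.41 with rescaled columns, -0.37 relative to all genes and -0.052 with the low dose from another table. The filter left 7 higher. Members at least 2-fold higher numbered 0 and 12 with pseudocounts of 1 and 0.01, 3 with the filter, 8 rescaled and 3 relative to all genes. Those at least 2-fold lower numbered 0 and 16 with these pseudocounts, 3 with the filter and 11 rescaled. Rescaled, the log2 ratio of the alpha sum changed sign to -0.063, that of beta was -0.77 and that of gamma -0.33. Without Pcdhb22 beta was -0.19.

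For BMN/PAZA low dose against PAZA, the median became 0.057 and 0.84 with pseudocounts of 1 and 0.01 and 0.29 relative to all genes, and changed sign to -0.29 with the filter, which left 6 higher. Members at least 2-fold higher numbered 0 and 19 with the pseudocounts and 4 with the filter. Those at least 2-fold lower numbered 0 with a pseudocount of 1 and 4 with the filter. Beta without its highest gene was -0.68.

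For BMN/PAZA high dose against BMN, the median became -0.30 with the filter and -0.25 rescaled, and changed sign to 0.079 relative to all genes. The filter left 6 higher. Members at least 2-fold higher numbered 0 and 6 with the pseudocounts, 1 with the filter and 4 rescaled. Those at least 2-fold lower numbered 0 and 9 with the pseudocounts and 8 rescaled. The log2 ratio of the alpha sum, 2.88 in the main setting, became 2.70 rescaled and 1.99 without its highest gene. That of beta became -0.46 and -0.12 from -0.28, and that of gamma -0.59 rescaled from -0.41.

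For BMN/PAZA low dose against BMN/PAZA high dose, the median became 0.19 and 1.88 with the pseudocounts, 1.56 with the filter, 0.18 rescaled and 0.16 on the scale of the tables with BMN, and changed sign to -0.63 relative to all genes, where 12 were higher. Members at least 2-fold higher numbered 4 with a pseudocount of 1, 10 rescaled, 2 relative to all genes and 5 on the scale of the tables with BMN. Those at least 2-fold lower numbered 0 and 6 with the pseudocounts, 0 with the filter, 6 rescaled, 15 relative to all genes and 5 on that scale. Alpha changed sign from 0.053 as deposited to -1.65 rescaled and on that scale. Beta, 1.72 as deposited, was 0.019 under both and 1.48 without its highest gene, and gamma, 2.05 as deposited, was 0.35 under both. The scale of the tables with BMN was added after seeing the data. The estimates of 6540000 to 9220000 fragments per library depend on the unit and on the scale of each table. In members of a few fragments, 1 fragment decides whether a gene is above 0.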
